A study of Mus musculus with 11 samples.

Results

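Dorsal telencephalon of the mouse embryo at E12.5 was compared between 2 RNA-seq libraries labelled L3mbtl3 -/- and 3 control libraries, 5 of the 11 libraries of the series. The 5 were taken by their titles. Of the controls, 1 was labelled wild-type and 2 were labelled L3mbtl3 +/-, and all 5 came from the CD-1 strain. The tissue was microdissected, and its polyadenylated RNA was sequenced. The labels do not tie libraries to embryos or litters, so p-values here measure a spread between libraries, of which an unknown part may be technical. The 2 labelled knockouts differed in sex, as given below, so they came from different embryos. The heterozygotes among the controls carry 1 labelled mutant allele, and a single wild-type library cannot show how far they differ from wild-type.

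The dorsal telencephalon is the wall of the forebrain that forms the neocortex. At this age it consists mostly of dividing progenitors along the ventricle and of their first neurons. At its medial edge lie the cortical hem, a source of Wnt signals, and the choroid plexus, a secretory epithelium that carries motile cilia and makes the cerebrospinal fluid. L3mbtl3 encodes a nuclear protein whose MBT domains bind methylated lysines, and the series' title places it with the Polycomb complex PRC1, which represses developmental genes. The comparison asks which transcripts differ when L3mbtl3 is labelled as lost.

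L3mbtl3 itself (ENSMUSG00000039089, GRCm38 chromosome 10, 26274468 to 26375185) did not fall in the libraries that carry the knockout label. It was measured at 64.7 CPM (counts scaled to the same library size) in the wild-type library, 61.5 and 63.9 CPM in the heterozygotes, and 74.4 and 77.8 CPM in the labelled knockouts. All controls were below both labelled knockouts, with a difference of 0.27 (log2, SE 0.0539, adjusted p = 0.0128). The call was lost without labelled knockout 2 (0.23, adjusted p = 0.0550). Counts summed over all exons do not show whether an exon was removed, so the label could not be checked this way, and every direction below is that of the libraries labelled knockout relative to the controls.

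The 5 libraries held 16527551 to 26658718 counts, at which a count of 0 allows a level of up to 0.113 to 0.182 CPM. These floors cover counting error only, since no molecular identifiers separate reads from molecules. Labelled knockout 2 was the only female library, with 66223 Xist counts against 6 to 35 in the others and at most 4 counts of the Y-linked Kdm5d, Eif2s3y, Uty and Ddx3y. It also stood apart over all genes with Xist and the Y-linked genes included, and their share in this was not measured. Its counts differed from the controls with a chi-square, per degree of freedom, of 13.5 to 14.8, and of 10.3 against labelled knockout 1, while labelled knockout 1 differed from the controls by 6.03 to 7.41 and the controls from each other by 2.48 to 3.57. Markers of the dorsal telencephalon were present in every library, with a summed level of 1826 to 1831 CPM in the controls and of 1687 and 1862 CPM in the labelled knockouts. The sum hides 2 calls among the 8 markers, since Eomes fell by 0.38 and Emx2 rose by 0.29 (log2). Eomes had 248 CPM in the wild-type library, 238 and 240 CPM in the heterozygotes, and 187 and 186 CPM in the labelled knockouts.

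Differences were numerous and mostly small. Of 16361 genes tested, 1213 were called at an adjusted p under 0.05, which is 7.41% of the genes, and 594 rose (3.63%) while 619 fell (3.78%). The median size of a called change was 0.36 (log2) among genes that rose and 0.47 among those that fell, and a change of more than 1 was reached by 59 and 146 genes. In none of the 1213 did the labelled knockouts overlap with the controls. A lack of overlap given below for a called gene thus adds nothing to its call. Over all genes tested, 19.1% lay higher and 19.5% lower in both labelled knockouts than in every control.

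Leaving out single libraries changed the count of called genes by more than 1.5 times in several cases. It was 603 without the wild-type library, 1059 without heterozygote 1, 673 without heterozygote 2, 1785 without labelled knockout 1 and 658 without labelled knockout 2. The last fit holds only male libraries, and 542 of its calls were shared with the full set. A group left with 1 library is assumed to vary like the others. Across all 5 of these fits 406 genes were called each time, 200 that rose and 206 that fell, and they are described below as called in every leave-one-out fit. On the X chromosome 22 of 593 tested genes rose and 33 fell (9.27% called).

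The share of called genes differed widely between functional lists. Motile cilium genes had the largest share, and all of their called members fell. Solute carriers and potassium channels also fell more often than they rose, whereas called homeobox and forkhead genes, integrins, growth factor signalling genes and genes of cholesterol synthesis mostly or only rose. Lists overlap, and their counts are set beside the share over all genes without a test of the list.

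**Figure D1:**
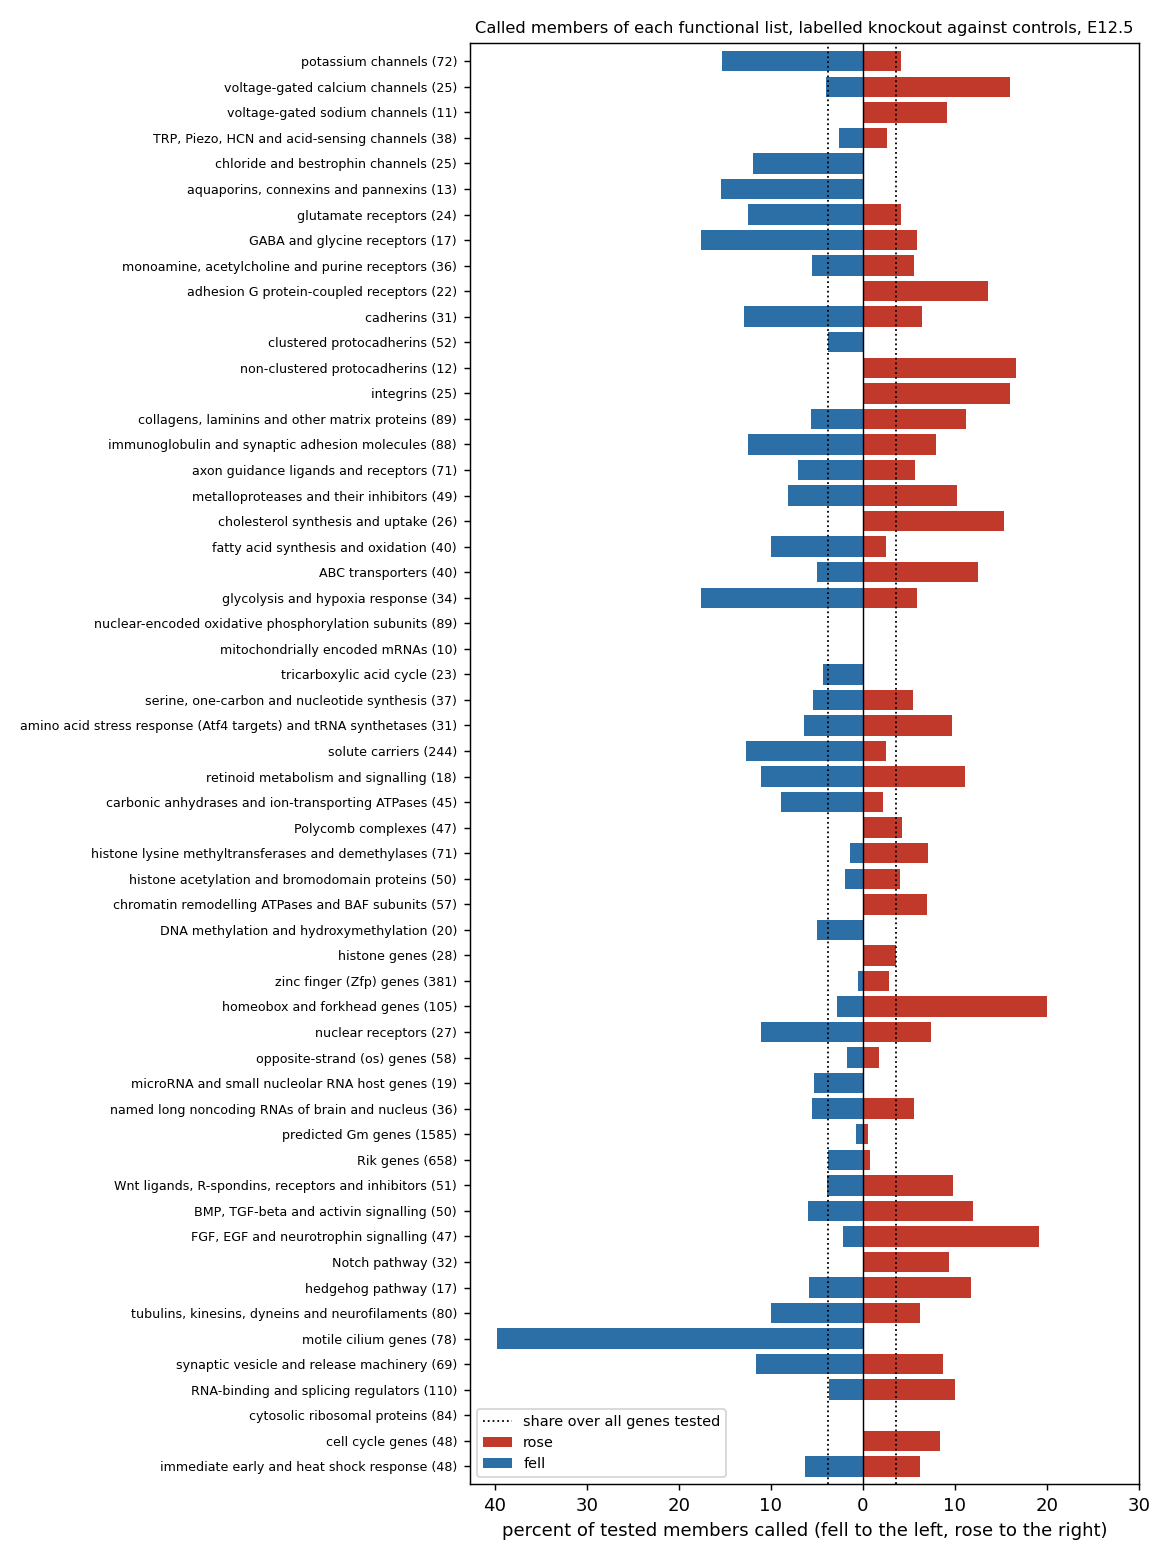
Percent of the tested members of each of 56 functional lists that rose (right) or fell (left) in the 2 libraries labelled knockout against the 3 controls, with the number tested in parentheses. Dotted lines mark the shares over all 16361 genes tested, 3.63% for genes that rose and 3.78% for genes that fell. The longest bar belongs to the motile cilium genes, of which 31 of 78 fell and 0 rose.

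The largest increase among genes with a mean log2 CPM of at least 1 was that of Gm2694, a long intergenic noncoding RNA. It was measured at 2.75, 2.25 and 2.23 CPM in the wild-type library and the 2 heterozygotes, and at 13.5 and 16.2 CPM in labelled knockouts 1 and 2, a difference of 2.63 (log2, SE 0.147, adjusted p = 2.77e-06). All per-library values below keep this order. Its neighbour Cbln1, which encodes a secreted organizer of synapses, had 8.65, 7.20 and 7.12 CPM in the controls and 26.0 and 22.7 CPM in the labelled knockouts (1.67, SE 0.108, adjusted p = 9.04e-06). The genes lie head to head on GRCm38 chromosome 8, Cbln1 on the minus strand at 87468854 to 87472592 and Gm2694 on the plus strand at 87472812 to 87525554, with 219 bases between them. Both were called in every leave-one-out fit. The RefSeq promoter window of Gm2694 (GRCm38.p6, plus strand, chr8:87472866-87473165) covers 250 bases before to 50 after the RefSeq start. It is shown because it belongs to the largest increase. The window lies within the Gm2694 span given above, close to the interval that separates the pair but outside it.
Gm2694: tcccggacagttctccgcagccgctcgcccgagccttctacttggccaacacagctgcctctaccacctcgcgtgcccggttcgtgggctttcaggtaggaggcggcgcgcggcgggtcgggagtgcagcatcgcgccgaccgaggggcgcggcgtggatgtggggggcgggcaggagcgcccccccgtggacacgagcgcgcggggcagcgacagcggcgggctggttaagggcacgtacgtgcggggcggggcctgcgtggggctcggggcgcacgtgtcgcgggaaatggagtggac

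The other genes at the top of the increases have varied functions. Ugt8a, the galactosyltransferase that makes the main glycolipid of myelin, had 6.87, 8.92 and 8.63 CPM in the controls and 27.3 and 25.0 CPM in the labelled knockouts (1.68, SE 0.109). Abca7, a lipid transporter, was the most tightly measured of them, at 19.6, 20.0 and 20.2 CPM against 55.2 and 54.8 CPM (1.47, SE 0.0593, adjusted p = 3.44e-07). Neither gene's groups came near each other. Sfmbt2, which encodes another MBT-domain protein of the Polycomb group, had 5.09, 3.71 and 5.43 CPM in the controls and 15.6 and 14.03 CPM in the labelled knockouts (1.67, SE 0.149, adjusted p = 8.43e-05). Trim71, an RNA-binding ubiquitin ligase that let-7 microRNAs repress, had 2.29, 3.11 and 1.75 CPM against 6.72 and 7.51 CPM (1.54, SE 0.202, adjusted p = 0.00124). The endoplasmic reticulum chaperone Clgn rose by 1.69, the transmembrane protein Tmem132e by 1.76, Fam189a1 by 1.57, the actin-binding Nexn by 1.43 and the potassium channel Kcnj10 by 1.42. Jade2, a scaffold subunit of histone acetyltransferase complexes, rose by 1.41.

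Among the largest decreases, several genes belong to cilia or to the choroid plexus. Kcne2, a potassium channel subunit of the choroid plexus, had 26.6, 22.3 and 23.7 CPM in the controls and 6.13 and 6.10 CPM in the labelled knockouts (-1.98, SE 0.108, adjusted p = 2.77e-06). Slc4a5, a sodium bicarbonate cotransporter, had 8.50, 7.91 and 8.15 CPM against 2.75 and 1.92 CPM (-1.81, SE 0.174). Dnah3, a heavy chain of axonemal dynein, had 3.61, 3.19 and 2.35 CPM against 0.637 and 0.610 CPM (-2.29, SE 0.287). These genes were chosen with no overlap between groups, so by that rule the labelled knockouts were at less than every control. The protease inhibitor Serpinb1b fell by 2.42, Ccdc180 by 2.00, 2810459M11Rik by 1.96, the myosin-binding Mybpc1 by 1.88 and the adenylate kinase Ak7 by 1.86. Crocc2 fell by 1.75, the kinase gene Map3k19 fell by 1.69, the endocytic receptor Ly75 fell by 1.63 and the kinase gene Cdkl2 fell by 1.61. All 24 of these genes, 12 in each direction, were called in every leave-one-out fit.

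**Figure D2:**
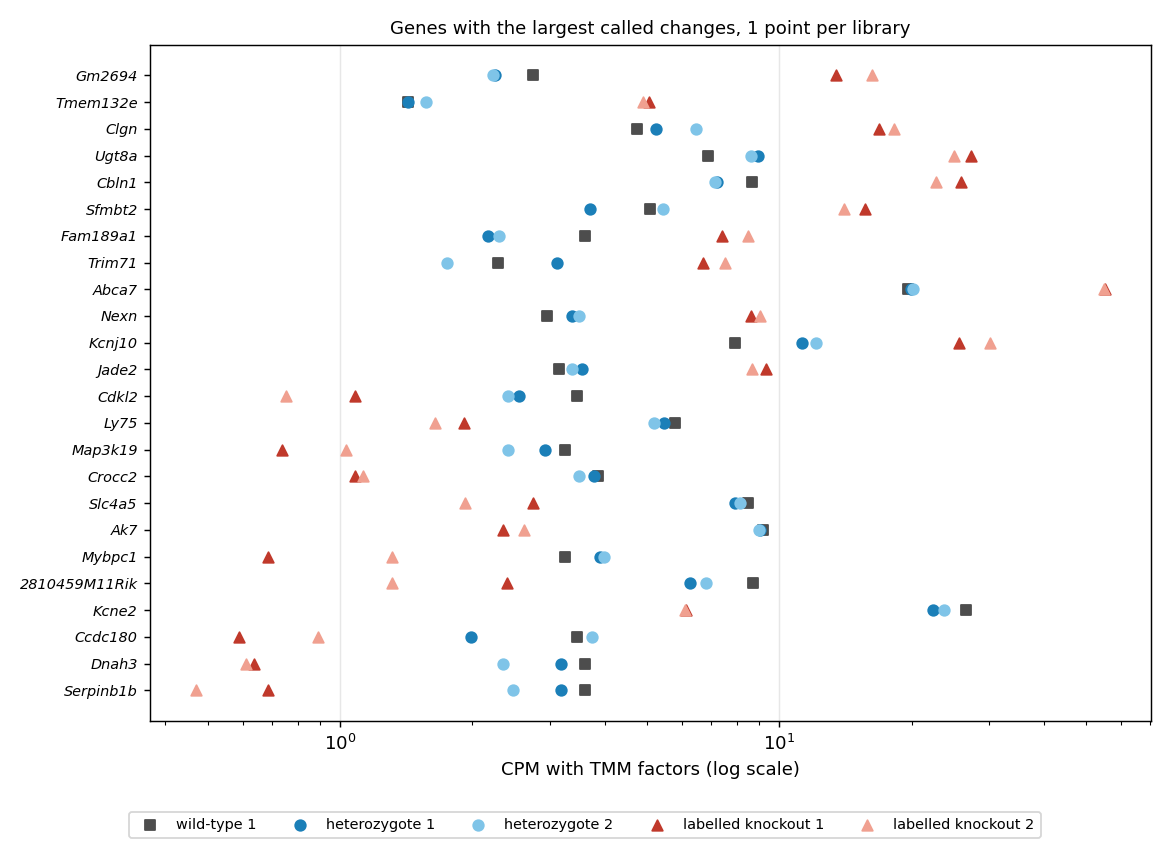
Level of the 12 called genes per direction with the largest changes, as CPM with TMM factors on a log axis, 1 point per library. The rule that chose the genes puts the 2 labelled knockout libraries (triangles) on one side of the 3 controls (squares and circles). Gm2694 lies at 13.5 and 16.2 CPM against 2.23 to 2.75 CPM.

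The calls depended on which libraries set the estimate of spread. When all 11 libraries of the series shared 1 estimate, 15 genes were called (12 rose, 3 fell), and these were also called under every other setting run. L3mbtl3 was not among them. Those that rose included Abca7, Gm2694, Cbln1, Ugt8a, Clgn, the calcium channel subunits Cacna1a and Cacna1c, the transcription factors Pou2f2 and Cux2, the synaptic adhesion protein Slitrk5 and the translational repressor Nanos1. Those that fell were Ak7, the calcium-binding channel partner Kcnip3 and the retinaldehyde-binding protein Rlbp1. Nanos1 and Rlbp1 are named only for this and were chosen after their values were seen. Nanos1 had 12.3, 14.6 and 15.51 CPM in the controls and 35.6 and 38.8 CPM in the labelled knockouts, and Rlbp1 had 40.8, 33.8 and 41.5 CPM against 21.5 and 20.9 CPM.

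Motile cilium genes fell. Of 90 listed, 78 were tested, and 31 fell (39.7% called) while 0 rose, with a median of -0.57 (log2) over the tested members against 0.00 over all genes. The called members included heavy chains of axonemal dynein, radial spoke proteins and cilia and flagella associated proteins, and 21 of the 31 were called in every leave-one-out fit. The counts were 23, 28, 24, 26 and 27 without the wild-type library, heterozygote 1, heterozygote 2, labelled knockout 1 and labelled knockout 2. With all 11 libraries in the fit 1 was called.

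Dnah6, an inner arm dynein heavy chain (ENSMUSG00000052861, GRCm38 chromosome 6, 73017606 to 73221651), had 25.4, 23.7 and 26.1 CPM in the controls and 10.003 and 8.07 CPM in the labelled knockouts (-1.47, SE 0.104, adjusted p = 1.51e-05). Ak7, which supports the beat of motile cilia, had 9.16, 9.03 and 8.99 CPM against 2.35 and 2.63 CPM (-1.86, SE 0.147, adjusted p = 3.59e-05). Cfap44, an axonemal protein, had 21.6, 21.5 and 20.9 CPM against 10.5 and 9.62 CPM (-1.09, SE 0.0878, adjusted p = 4.16e-05). The controls were close to each other in all of them, and the labelled knockouts lay well below them. The dynein heavy chain gene Dnah9 had 13.5, 12.2 and 12.4 CPM against 5.59 and 5.16 CPM (-1.24, SE 0.118). Cfap65 fell by 1.08 and Cfap126 by 1.10. The 47 tested members that were not called were all measured, and they enter the median above.

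The RefSeq promoter windows (GRCm38.p6) of the 3 motile cilium genes with the smallest p are printed to show what sequence lies at the starts of genes that fell together. RFX factors, which drive many ciliary genes, bind the X-box. Both strands were searched for its half-site, GTTGCC, and for a longer pattern, GTNNCC followed after 3 free bases by GNAAC, which can overlap the half-site. Capitals mark the matches. Only exact matches were counted, so a similar stretch with another letter or spacing stays unmarked.
Dnah6, minus strand, chr6:73221582-73221881: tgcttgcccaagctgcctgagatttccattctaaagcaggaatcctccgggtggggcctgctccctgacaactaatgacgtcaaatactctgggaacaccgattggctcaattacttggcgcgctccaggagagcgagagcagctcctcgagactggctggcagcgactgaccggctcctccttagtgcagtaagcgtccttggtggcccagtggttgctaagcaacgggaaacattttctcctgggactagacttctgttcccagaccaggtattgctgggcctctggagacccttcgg
Ak7, plus strand, chr12:105705732-105706031: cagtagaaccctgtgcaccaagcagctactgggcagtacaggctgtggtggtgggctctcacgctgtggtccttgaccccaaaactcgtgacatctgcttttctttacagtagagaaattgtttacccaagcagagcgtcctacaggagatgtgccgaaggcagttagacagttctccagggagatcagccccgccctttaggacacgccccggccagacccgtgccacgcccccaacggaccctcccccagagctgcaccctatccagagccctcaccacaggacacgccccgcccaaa
Cfap44, plus strand, chr16:44394549-44394848: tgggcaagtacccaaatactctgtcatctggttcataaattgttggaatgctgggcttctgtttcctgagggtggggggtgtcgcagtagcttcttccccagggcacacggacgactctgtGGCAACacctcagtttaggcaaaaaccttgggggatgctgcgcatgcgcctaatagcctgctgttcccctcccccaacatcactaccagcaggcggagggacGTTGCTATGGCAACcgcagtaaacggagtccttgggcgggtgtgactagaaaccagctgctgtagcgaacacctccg
Cfap44 held both patterns, and neither pattern was found in the windows of Dnah6 and Ak7. A window was given for 22 of the 31 genes that fell. The longer pattern stood in 6 of these 22 (27.3%), in 6 of 40 motile cilium genes that were tested and not called (15.0%), and in 3.32% of 11469 tested genes with a window. For the half-site the order was different, with 6 of 22 (27.3%), 21 of 40 (52.5%) and 15.1%. The shares are a description of letters in these windows and name no site.

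**Figure D3:**
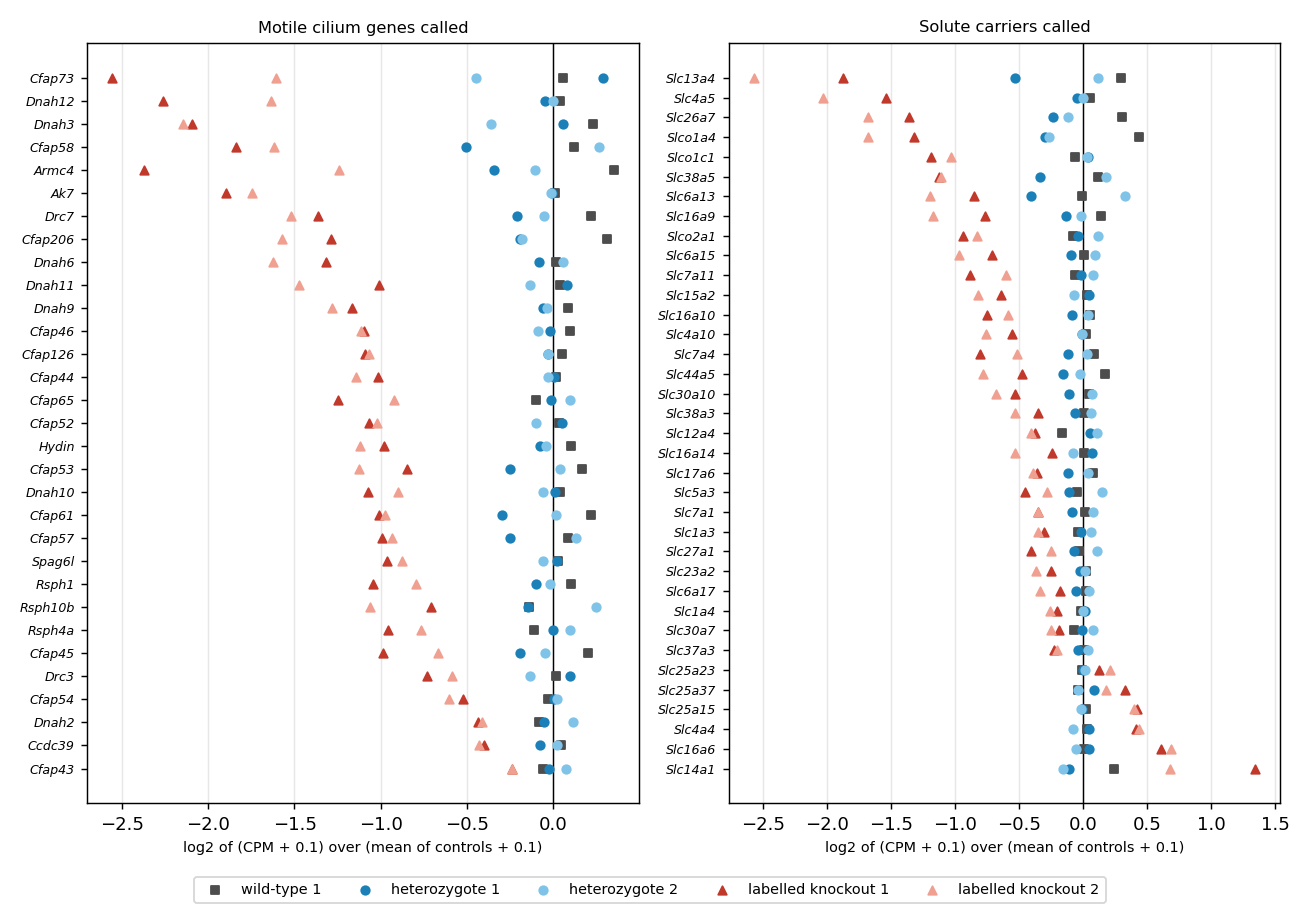
Level of each called motile cilium gene (left) and solute carrier (right) in each library, as log2 of CPM + 0.1 over the mean of the 3 controls + 0.1. On the left the 2 labelled knockouts lie below 0 for all 31 genes, and on the right 36 of the 37 called carriers are drawn.

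Solute carriers, the membrane proteins that move nutrients and ions, mostly fell where they were called. Of 361 listed, 244 were tested, 31 fell and 6 rose (15.2% called), with a median of -0.06, and 18 of the 37 were called in every leave-one-out fit. The count was 24 without heterozygote 2 and 22 without labelled knockout 2. The peptide transporter gene Slc15a2 had 47.4, 47.9 and 44.2 CPM in the controls and 29.8 and 26.2 CPM in the labelled knockouts (-0.73, SE 0.0714). The manganese exporter Slc30a10 fell by 0.61 and the cystine transporter Slc7a11 by 0.74. In the other direction Slc16a6, of the monocarboxylate transporter family, had 20.2, 20.8 and 19.4 CPM against 30.7 and 32.3 CPM (0.64, SE 0.0702).

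Most choroid plexus markers fell with these lists. The summed level of the 10 markers was 761, 667 and 753 CPM in the controls and 352 and 349 CPM in the labelled knockouts. Of the 10, 7 fell and 1, Msx1, rose, while Kl (0.30) and Otx2 (0.19) were higher without a call. Ttr, the thyroid hormone carrier secreted by the choroid plexus, had 477, 393 and 466 CPM in the controls and 155 and 139 CPM in the labelled knockouts (-1.60, SE 0.0985). It was the largest part of the sum and was not called in every leave-one-out fit. Htr2c, a serotonin receptor abundant there, had 26.4, 22.5 and 24.4 CPM against 7.75 and 8.21 CPM (-1.61, SE 0.101). The water channel Aqp1 fell by 1.37 and the chloride channel protein Clic6 by 0.70. The carbonic anhydrase Car12, which is not among the 10 markers, fell by 1.17. No marker of the 10 was at 0 in every library. In bulk tissue, fewer cells of a type and less RNA per cell cannot be told apart, and the part of the choroid plexus in the changes of ciliary and carrier genes was not tested.

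Other marker sums moved less or the other way. Ventral telencephalon markers summed to 94.7, 84.2 and 114 CPM in the controls and to 166 and 130 CPM in the labelled knockouts, and 4 of 10 rose. Cortical hem markers had 315, 320 and 327 CPM against 353 and 435 CPM, and 2 of 9 rose. Both sums were higher in both labelled knockouts than in any control. No marker of microglia (8 tested), of endothelium and pericytes (8) or of erythroid cells (9) was called by edgeR, and the sums overlapped between the groups. At an unadjusted p under 0.05 there were 2, 2 and 0, and both DESeq2 and limma voom called 0, 1 and 0.

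**Figure D4:**
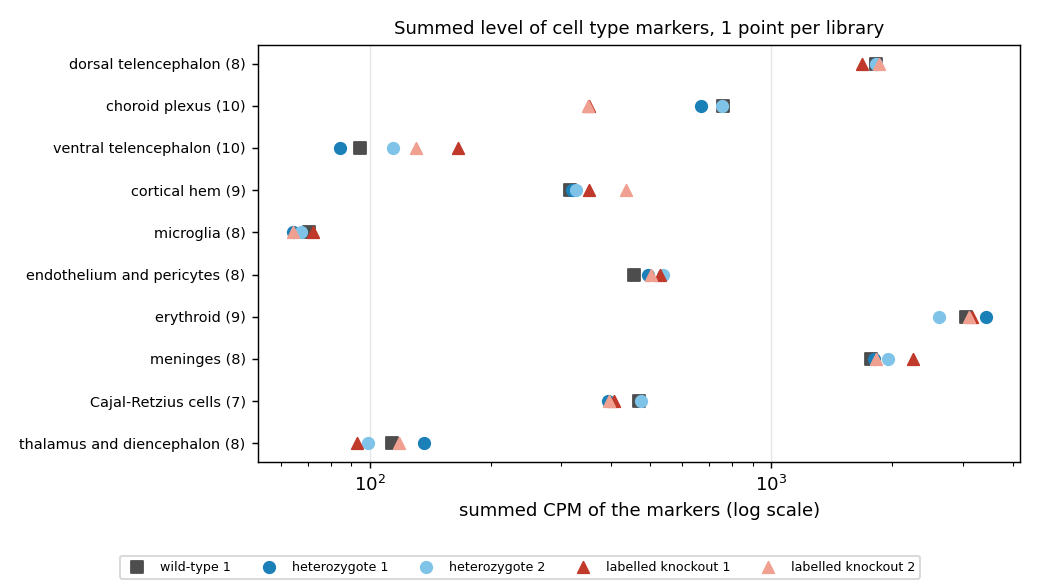
Summed CPM of the markers of 10 cell types or regions in each of the 5 libraries on a log axis, with the number of markers in parentheses. Choroid plexus markers lie at 352 and 349 CPM in the labelled knockouts and at 667 to 761 CPM in the controls, while the groups overlap for microglia, endothelium and erythroid cells.

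Ion channels changed in both directions. Of 72 potassium channel genes tested 3 rose and 11 fell (19.4% called, median -0.05), and of 25 genes of voltage-gated calcium channels and their partners 4 rose and 1 fell (20.0% called, median 0.04). Kcnj10, an inward rectifier of glia, had 7.94, 11.3 and 12.1 CPM in the controls and 25.6 and 30.1 CPM in the labelled knockouts (1.42, SE 0.156, adjusted p = 0.00201). The calcium-activated Kcnn3 had 16.9, 15.1 and 16.1 CPM against 9.37 and 7.55 CPM (-0.92, SE 0.115), and Kcnip3, which binds Kv4 channels, had 18.2, 14.6 and 17.9 CPM against 8.24 and 7.23 CPM (-1.12, SE 0.125). Neither overlapped between groups. The delayed rectifier Kcnh2 rose by 0.71, and Kcnj13, an inward rectifier of the choroid plexus, fell by 1.56. Among the 14 called potassium channel genes 7 were called in every leave-one-out fit, and 9 genes of the list were called without labelled knockout 2.

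The calls among calcium channel genes were 3 pore-forming subunits and Nalcn, which rose, and Cacna2d1, which fell, while 20 of the 25 tested did not pass the test and 13 of the 25 lay above 0. Cacna1a, of the P/Q type, had 21.5, 19.1 and 22.2 CPM in the controls and 50.2 and 53.0 CPM in the labelled knockouts (1.31, SE 0.0733, adjusted p = 2.77e-06). The L-type Cacna1c had 35.8, 35.7 and 45.8 CPM against 73.7 and 69.7 CPM (0.88, SE 0.105), and the L-type Cacna1d had 10.5, 9.07 and 10.2 CPM against 17.9 and 16.4 CPM (0.79, SE 0.102). Each stood higher in both labelled knockouts than in any control. The sodium leak channel Nalcn rose by 0.56 (SE 0.0802), while the auxiliary subunit Cacna2d1 had 175, 170 and 172 CPM against 144 and 124 CPM and fell by 0.36. All 5 were called in every leave-one-out fit, and 9 genes of the list were called without labelled knockout 1.

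Subunits of neurotransmitter receptors were split within families. Of 24 glutamate receptor genes 1 rose and 3 fell (16.7% called), and of 17 GABA and glycine receptor genes 1 rose and 3 fell (23.5% called). Gria4, an AMPA receptor subunit, had 17.7, 18.9 and 20.2 CPM in the controls and 33.2 and 29.0 CPM in the labelled knockouts (0.72, SE 0.0844), and the metabotropic Grm5 had 3.36, 2.92 and 3.68 CPM against 1.37 and 1.22 CPM (-1.34, SE 0.221). The AMPA receptor subunit Gria1 fell by 0.73. The GABA receptor subunit Gabrb2 had 5.24, 5.21 and 5.07 CPM against 12.3 and 10.9 CPM (1.16, SE 0.120), whereas the subunit Gabrg1 fell by 0.82. Gria4, Grm5 and Gabrb2 were called in every leave-one-out fit. The counts of called genes fell from 4 to 2 for glutamate receptors without heterozygote 2 or labelled knockout 2, and from 4 to 1 for GABA and glycine receptors without the wild-type library or labelled knockout 2 and to 2 without heterozygote 2.

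**Figure D5:**
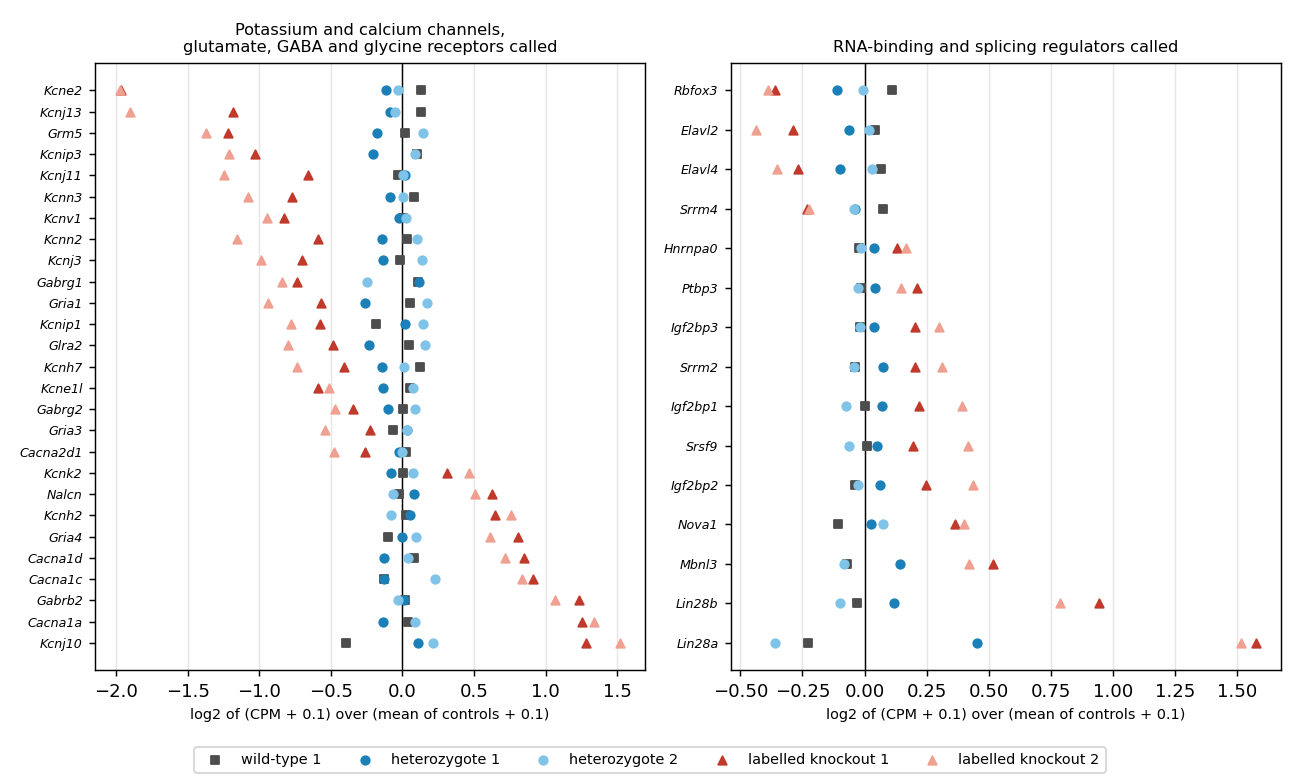
Level of each called channel or receptor gene (left) and RNA-binding or splicing regulator (right) in each library, as log2 of CPM + 0.1 over the mean of the 3 controls + 0.1. Kcnj10 and Cacna1a at the bottom left lie above 0 in both labelled knockouts, Kcne2 and Kcnj13 at the top left lie below it, and 11 of the 15 genes on the right rose.

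Called adhesion molecules went in both directions. Of 88 immunoglobulin and synaptic adhesion genes tested, 7 rose and 11 fell (20.5% called), and 10 of the 18 were called in every leave-one-out fit. The count was 11 without the wild-type library. Slitrk5, which promotes synapse formation, had 22.5, 24.5 and 25.8 CPM in the controls and 42.0 and 45.9 CPM in the labelled knockouts (0.86, SE 0.0733, adjusted p = 6.08e-05). Its relative Slitrk2 had 47.7, 47.9 and 48.6 CPM against 39.1 and 32.1 CPM (-0.43, SE 0.0766), and the axonal Cntn1 had 18.1, 14.1 and 16.6 CPM against 9.32 and 6.90 CPM (-1.0004, SE 0.148). The pair of Slitrk genes thus moved in opposite directions, each without overlap. Mdga2, which blocks neuroligin, rose by 0.61 and the limbic cell adhesion gene Lsamp by 0.45.

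Among 31 cadherins tested 2 rose and 4 fell (19.4% called). Among 52 clustered protocadherins 0 rose and 2 fell (3.85% called), with a median of -0.16 and 37 of the 52 below 0. The giant cadherin gene Fat1 had 313, 341 and 305 CPM in the controls and 395 and 392.1 CPM in the labelled knockouts (0.30, SE 0.0487), and Cdh7 rose by 0.43. Non-clustered Pcdh7 had 35.4, 36.1 and 38.5 CPM against 52.7 and 51.5 CPM (0.51, SE 0.0585). These 3 genes were called in every leave-one-out fit. The count for cadherins was 3 without the wild-type library and 3 without heterozygote 2, and that for clustered protocadherins was 0 without the wild-type library, heterozygote 2 or labelled knockout 2.

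Called integrins and matrix genes mostly rose. Of 25 integrins 4 rose and 0 fell (16% called), and the count was 2 without heterozygote 2. Over all 25, 11 lay above 0 and 14 below, with a median of -0.05. Itga2b, with 5.85, 7.53 and 6.64 CPM in the controls and 12.0 and 13.5 CPM in the labelled knockouts (0.92, SE 0.128), and Itgb3, with 6.61, 9.07 and 9.96 CPM against 15.6 and 16.2 CPM (0.90, SE 0.143), encode the 2 chains of the fibrinogen receptor of platelets. Neither overlapped between groups. Of 89 collagens, laminins and other matrix genes 10 rose and 5 fell (16.9% called). Fibronectin, Fn1, had 427, 486 and 442 CPM against 594 and 562 CPM (0.36, SE 0.0551), and the link protein Hapln1 had 9.62, 13.04 and 10.2 CPM against 19.5 and 18.8 CPM (0.79, SE 0.122). Brevican, Bcan, a proteoglycan of glial matrix, went the other way, with 39.9, 30.5 and 41.9 CPM against 12.2 and 12.8 CPM (-1.57, SE 0.148).

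Guidance genes gave 4 that rose and 5 that fell among 71 tested (12.7% called). The secreted attractant Ntn1 had 7.94, 5.10 and 7.12 CPM in the controls and 14.6 and 13.1 CPM in the labelled knockouts (1.06, SE 0.163). Efna5, a membrane-tethered ligand, had 19.3, 21.5 and 17.1 CPM against 31.5 and 30.7 CPM (0.68, SE 0.0897). The receptor genes Robo2 and Nrp1 fell by 0.28 and by 0.27, the former from 135, 127 and 132 CPM to 109 and 107 CPM. These 4 were called in every leave-one-out fit. Calls in the list numbered 5 without the wild-type library, 14 without heterozygote 1, 5 without heterozygote 2 and 19 without labelled knockout 1.

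Lists of energy metabolism differed in their share of calls. None of 89 nuclear-encoded subunits of oxidative phosphorylation and none of 10 mitochondrially encoded mRNAs was called by edgeR, and the members with the smallest p were Uqcrc1 (0.18, adjusted p = 0.0694), Atp5f1 (-0.11, adjusted p = 0.0876), mt-Co2 (0.39, adjusted p = 0.145) and mt-Nd2 (0.08, adjusted p = 0.248). At an unadjusted p under 0.05 they numbered 4 and 1, and DESeq2 and limma voom each called 0. Without labelled knockout 1 there were 3 calls among the nuclear-encoded subunits, and without labelled knockout 2 there was 1 among the mitochondrial mRNAs. In the glycolysis and hypoxia list 2 of 34 rose and 6 fell (23.5% called). Aldoc, the aldolase of brain, had 192, 191 and 199 CPM in the controls and 109 and 86.2 CPM in the labelled knockouts (-0.99, SE 0.0931, adjusted p = 0.00224). Ddit4, an inhibitor of mTOR signalling, had 71.7, 68.5 and 71.0 CPM against 57.7 and 58.1 CPM (-0.28, SE 0.0536). Both were called in every leave-one-out fit, and the list gave 3 calls without the wild-type library, 2 without heterozygote 2 and 3 without labelled knockout 2. The growth factor Vegfa and the glycolytic enzyme Pfkl rose by 0.21 and by 0.19, but were called in only 1 and 2 of the 5 leave-one-out fits.

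Lipid genes leaned upwards for sterols. Of 26 genes of cholesterol synthesis and uptake 4 rose and 0 fell (15.4% called), with 21 of the 26 above 0 and a median of 0.12. Lss, the cyclase that forms lanosterol, had 79.7, 84.6 and 89.4 CPM in the controls and 103 and 106 CPM in the labelled knockouts (0.30, SE 0.0553). The count was 2 without the wild-type library and 2 without heterozygote 2. Among fatty acid genes 1 of 40 rose and 4 fell. Fabp7, the fatty acid binding protein of radial glia, had 341, 324 and 334 CPM against 284 and 280 CPM (-0.24, SE 0.0393). The 5 calls of this list became 2 without the wild-type library, 1 without heterozygote 2 and 2 without labelled knockout 2.

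Genes of chromatin had shares of calls near or under that of all genes, and more of them lay above 0 than below. Of 47 listed Polycomb genes Bcor rose by 0.24 and Cbx6 by 0.19, and 0 fell, which at 4.26% called lies under the 7.41% of all genes. The list leaves out Sfmbt2, which rose by 1.67 and was called in every leave-one-out fit, and L3mbtl3, which rose by 0.27. Bcor, a subunit of a PRC1 variant, had 94.3, 89.4 and 91.3 CPM in the controls and 103 and 112 CPM in the labelled knockouts. Neither Bcor nor Cbx6 was called in every leave-one-out fit, and 35 of the 47 lay above 0 (median 0.05). The list gave 1 call without the wild-type library, 1 without heterozygote 1, 0 without heterozygote 2, 0 without labelled knockout 2 and 13 without labelled knockout 1. Of 71 histone lysine methyltransferases, demethylases and their partners 5 rose and 1 fell (8.45%), of 57 chromatin remodelling genes 4 rose and 0 fell (7.02%), of 50 genes of histone acetylation and bromodomains 2 rose and 1 fell (6%), and of 20 genes of DNA methylation 0 rose and 1 fell (5%). In these 4 lists 46, 35, 34 and 12 members lay above 0, called or not, with medians of 0.05, 0.03, 0.08 and 0.03. Setdb2, a histone H3 lysine methyltransferase, had 13.1, 15.1 and 14.4 CPM against 20.3 and 18.96 CPM (0.47, SE 0.0905), and the remodeller Chd1l had 31.4, 28.3 and 26.7 CPM against 40.7 and 39.8 CPM (0.48, SE 0.0730). Both, like Jade2, were called in every leave-one-out fit. Jade2, a subunit of acetyltransferase complexes, was counted in the list of methyltransferases and demethylases and not in that of acetylation. These 4 lists gave 17, 12, 10 and 6 calls without labelled knockout 1, and 0 to 3 each without the wild-type library, heterozygote 2 or labelled knockout 2. Without heterozygote 1 they gave 9, 6, 0 and 1.

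Transcription factors of the homeobox and forkhead families mostly rose where called. Of 105 tested 21 rose and 3 fell (22.9% called), with a median of 0.15 and 75 of the 105 above 0. Pou2f2 had 17.5, 17.7 and 16.7 CPM in the controls and 33.0 and 36.2 CPM in the labelled knockouts (0.99, SE 0.0736, adjusted p = 2.32e-05). Cux2, a marker of upper-layer neurons and their progenitors, had 27.3, 28.1 and 31.5 CPM against 48.1 and 57.5 CPM (0.87, SE 0.0866). Tshz1 rose by 0.46 and Six5 by 0.40, while Lhx9 fell by 0.33. These 5 were called in every leave-one-out fit, and the count for the list was 13 without the wild-type library. Dlx2, Dlx5 and Gsx2, of the ventral marker list above, were among the 21 and rose by 0.85, 0.83 and 1.16, and the part of ventral tissue in the dissection was not tested.

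Zinc finger genes named Zfp had a share of calls under that of all genes, with 11 that rose and 2 that fell among 381 (3.41%). Over all 381 the lean was the other way, with 144 above 0, 237 below and a median of -0.03. Zfp618 was the clearest, with 80.3, 83.9 and 78.6 CPM in the controls and 121 and 126 CPM in the labelled knockouts (0.61, SE 0.0490, adjusted p = 4.16e-05). Calls in the list numbered 5 without the wild-type library, 4 without heterozygote 2, 35 without labelled knockout 1 and 7 without labelled knockout 2. Of 27 nuclear receptor genes 2 rose and 3 fell (18.5% called). Nr3c1, the glucocorticoid receptor, had 28.03, 28.6 and 29.8 CPM against 51.9 and 50.8 CPM (0.84, SE 0.0585, adjusted p = 1.49e-05), whereas the thyroid hormone receptor Thra had 202, 189 and 214 CPM against 161 and 169 CPM (-0.29, SE 0.0516).

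RNA-binding and splicing regulators gave 11 that rose and 4 that fell among 110 tested (13.6% called). Lin28b, which blocks the maturation of let-7 microRNAs, had 15.3, 16.9 and 14.5 CPM in the controls and 30.1 and 26.9 CPM in the labelled knockouts (0.86, SE 0.0879, adjusted p = 0.000223). Igf2bp2 and Igf2bp3, which bind and stabilize growth-related mRNAs, rose by 0.35 and by 0.25, and the splicing factor Nova1 by 0.38. The neuronal Elavl2 had 237, 221 and 233 CPM against 188 and 170 CPM (-0.36, SE 0.0492), and its relative Elavl4 fell by 0.31. Lin28a, chosen after its values were seen, had 0.407, 0.712 and 0.362 CPM against 1.67 and 1.60 CPM (1.64, SE 0.332, adjusted p = 0.0126), and its call was lost in 1 leave-one-out fit. The list gave 8 calls without the wild-type library and 28 without labelled knockout 1. None of 84 cytosolic ribosomal proteins was called by edgeR. At an unadjusted p under 0.05 there were 5, DESeq2 called 2, limma voom called 0, and edgeR called 1 without heterozygote 1 and 1 without labelled knockout 1. The smallest p belonged to Rplp2 (0.21, adjusted p = 0.0669) and Rps24, which had 367, 264 and 352 CPM against 182 and 194 CPM (-0.80, adjusted p = 0.115).

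Long noncoding RNAs had few calls, and the difference in share from coding genes was not tested. Over the long noncoding classes together 7 of 938 rose and 17 fell (2.56%), against 584 and 594 of 13971 protein-coding genes (8.43%). Apart from Gm2694, Sox2ot, the transcript that overlaps Sox2, had 29.7, 27.5 and 28.1 CPM in the controls and 34.6 and 36.4 CPM in the labelled knockouts (0.32, SE 0.0658). The antisense gene Gm11266 had 31.5, 29.9 and 34.1 CPM against 21.4 and 21.7 CPM (-0.56, SE 0.0755, adjusted p = 0.00139), and Gm35394 had 6.87, 7.08 and 7.30 CPM against 3.87 and 3.75 CPM (-0.89, SE 0.141). 9630028B13Rik, also antisense, fell by 0.68. Gm2694, Gm11266, Gm35394 and 9630028B13Rik were called in every leave-one-out fit. Neat1, the scaffold of paraspeckles, had 15.8, 14.3 and 16.2 CPM against 11.1 and 12.2 CPM (-0.40, SE 0.0997), and was called in 1 of these fits. Genes with a predicted Gm name, many of them pseudogenes, had 8 that rose and 12 that fell among 1585 (1.26%), with 13 calls without heterozygote 1 and 33 without labelled knockout 1.

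Signalling genes were mostly higher where called. Of 47 genes of FGF, EGF and neurotrophin signalling 9 rose and 1 fell (21.3% called, median 0.16), among them the feedback inhibitors Dusp6 and Spry1, which rose by 0.27 and by 0.37. Fgfr1 had 144, 149 and 149 CPM in the controls and 167 and 176 CPM in the labelled knockouts (0.22, SE 0.0414). None of the 10 was called in every leave-one-out fit, and the count was 4 without the wild-type library, 3 without heterozygote 2, 16 without labelled knockout 1 and 2 without labelled knockout 2. Of 32 Notch pathway genes 3 rose and 0 fell (9.38% called), a share near the 7.41% of all genes. The ligand Jag2 had 18.98, 18.6 and 18.4 CPM against 44.6 and 50.3 CPM (1.35, SE 0.0711, adjusted p = 2.77e-06), and the ligand Jag1 had 41.6, 44.6 and 43.3 CPM against 58.2 and 52.3 CPM (0.35, SE 0.0624). Among 51 Wnt pathway genes 5 rose and 2 fell (13.7% called), with 2 calls without the wild-type library, 2 without heterozygote 2, 13 without labelled knockout 1 and 4 without labelled knockout 2. Wnt8b, a ligand of the cortical hem, had 53.9, 48.3 and 48.4 CPM against 68.1 and 85.2 CPM (0.61, SE 0.0953). Among 50 genes of BMP, TGF-beta and activin signalling 6 rose and 3 fell (18% called), with 2 calls without the wild-type library, 5 without heterozygote 1 and 3 without heterozygote 2. Id3, a target of BMP signalling, rose by 0.39, and the receptor gene Acvr1c fell by 1.13. Of 17 hedgehog pathway genes 2 rose and 1 fell, with 1 call without the wild-type library and 6 without labelled knockout 1. In the full set 17.6% of the hedgehog list was called, and the secreted hedgehog co-factor Scube3 rose by 0.54. Jag2, Jag1, Wnt8b, Id3, Acvr1c and Scube3 were called in every leave-one-out fit.

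Genes of the cytoskeleton, of synaptic vesicles and of the cell cycle completed the lists. Of 80 tubulins, kinesins, dyneins and neurofilaments 5 rose and 8 fell (16.3% called). The neuronal tubulin Tubb2a had 159, 150 and 154 CPM in the controls and 130 and 125 CPM in the labelled knockouts (-0.27, SE 0.0433), and Dclk2, a doublecortin-like kinase, had 190, 189 and 192 CPM against 241 and 238 CPM (0.33, SE 0.0337). Of 69 genes of vesicle release 6 rose and 8 fell (20.3% called). Dynamin 1, Dnm1, had 24.6, 24.8 and 26.1 CPM against 39.6 and 34.9 CPM (0.57, SE 0.0729), while Slc17a6, the vesicular glutamate transporter, had 94.9, 83.0 and 92.4 CPM against 70.2 and 68.7 CPM (-0.37, SE 0.0626). These 4 genes were called in every leave-one-out fit. Of 48 cell cycle genes 4 rose and 0 fell (8.33%), and cyclin D1, Ccnd1, had 259, 298 and 242 CPM against 426 and 422 CPM (0.67, SE 0.0786), with 3 of the 5 leave-one-out fits calling it. Calls for the cytoskeletal list numbered 5 without the wild-type library, 6 without heterozygote 2 and 8 without labelled knockout 2, and for vesicle release 9, 9 and 8 in those fits and 24 without labelled knockout 1. Cell cycle genes gave 2 calls in each of those 3 fits and 12 without labelled knockout 1.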

How the data were processed

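Stranded poly(A) libraries were read from one end over 75 bases, per the labels' protocols. Each deposited file gives raw counts per gene, made by the authors with featureCounts 2.0.1 and reversely stranded counting, per the file headers. The submitters' processing notes name HISAT2 2.2.1, SAMtools 1.9 and GRCm38. The annotation release is not given in the sources used here, so symbols came from a reference name table that matched 45143 of 46078 identifiers.

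The 5 E12.5 libraries were fitted with edgeR 4.0.16 in R 4.3.3 (robust quasi-likelihood, TMM factors, filterByExpr), two-sided, with Benjamini-Hochberg adjustment over 16361 genes. A gene was called, and said to rise or fall, at an adjusted p under 0.05. The SE is the absolute log2 change divided by the square root of the F statistic. DESeq2 1.42.0, limma 3.58.1 voom, other scalings and filters, all 11 libraries, a replicate block and each library left out were alternatives. The script was tested on simulated data, where it recovered most changes with the right sign but made more false calls than the nominal share.

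The 56 lists and the naming rule were chosen with earlier results of these data known. The rule names L3mbtl3, the 12 largest called changes per direction (mean log2 CPM of at least 1, no overlap between groups) and up to 6 called members per list with the smallest p. In a list without calls it names the 2 members with the smallest p. Coding genes were removed from the opposite-strand list, and long noncoding classes were pooled by GENCODE biotype, after values were seen. Xist and Y-linked genes served only to check embryo sex. For 3 genes that the rule names no value is given here, and they stay in all counts.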

Additional observations from a re-analysis of the deposited data

How the results depend on the processing

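Scaling by library totals or by relative log expression, limma voom, DESeq2 and a stricter filter kept each count of called genes within 1.5 times of 1213, 594 that rose and 619 that fell. With no low-count filter, where 26425 genes were tested, 2266 were called, 1227 that rose and 1039 that fell. With all 11 libraries sharing 1 estimate of spread, 15 were called, 12 that rose and 3 that fell, and L3mbtl3 lost its call at 0.26. The cause was not tested. Leaving out single libraries gave 603 to 1785 called genes, 282 to 983 that rose and 312 to 802 that fell, with fewer samples in each fit, and L3mbtl3 ranged from 0.23 to 0.30. With the replicate number of the titles as a block, 948 genes were called, 453 that rose and 495 that fell. Whether the numbers pair the samples cannot be told. The difference between replicates 1 and 2 of the labelled knockouts correlated with that of the heterozygotes at 0.0119 over 16361 genes. That rests on only 2 pairs, and the labelled knockouts differ in sex while the heterozygotes do not. Of 247 named genes, none reversed direction under an alternative. Of these, 241 were called, and no called gene had overlap between the groups. A reversal was thus unlikely from the start, and its absence is no measure of stability. Under DESeq2 29 named genes were no longer past the threshold, under the block 26, and with all 11 libraries 228. Without the wild-type library 79 were no longer past it, without heterozygote 1 36 and without heterozygote 2 75. With 2 libraries against 3, small changes are the least secure, and low counts limit genes such as Lin28a.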
